A study of Mus musculus with 12 samples.

Results

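Myo15, which codes for the motor protein myosin XVA, lies in a dense stretch of mouse chromosome 11 beside Drg2, Gid4, Atpaf2, Alkbh5, Llgl1, Flii, Mief2, Top3a and Smcr8. These 10 genes were taken by symbol from the 55401 gene identifiers in the count tables, and all 10 were among the 19378 genes with enough reads to be tested. Myo15 was chosen because earlier results of these same libraries had shown it low in heterozygous mice, so its levels against wild-type mice are given as a description, with no test. The 9 neighbours were chosen by position, and the question was whether they were low in the same libraries.

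RNA was sequenced from the cerebellum of 12 mice, 1 library per mouse, in 3 groups of 4. Wild-type mice given dimethyl sulfoxide (DMSO), the solvent, are called WT DMSO and are animals 413, 425, 426 and 431. The Het mice carried Atxn1154Q/2Q, a knock-in of spinocerebellar ataxia type 1 (SCA1) in which 1 copy of the mouse's own Atxn1 codes for an expanded run of glutamines and the other for a normal one. Het DMSO (animals 409, 411, 420 and 429) received the solvent alone, and Het Hit 2 (animals 410, 421, 422 and 430) received the compound Hit 2 at 25 mg/ml in DMSO, so that all 12 mice had DMSO, kept below 4 ml/kg. Injections were intraperitoneal, began at 18 weeks of age and ran daily for 5 days, with 2 days of rest and 5 further days, and the cerebellum was taken at 20 weeks. Wild-type mice given Hit 2 are not among these libraries, so an action of the compound that does not need the expanded allele cannot be told apart from one that does.

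Myosin XVA is an unconventional myosin known from the sensory hair cells of the inner ear. There it walks along actin filaments to the tips of stereocilia and carries whirlin, EPS8, GPSM2 and GNAI3, a complex on which the growth of the stereocilia depends. Mutations of Myo15 cause deafness and circling in shaker-2 mice and deafness in people. The neighbours have unrelated housekeeping roles: a GTP-binding protein (Drg2), the substrate receptor of the CTLH ubiquitin ligase (Gid4), an assembly factor of mitochondrial ATP synthase (Atpaf2), an RNA demethylase (Alkbh5), a cell polarity protein (Llgl1), an actin-binding protein of the gelsolin family (Flii), a receptor for the mitochondrial fission factor Drp1 (Mief2), a DNA topoisomerase (Top3a) and a partner of C9orf72 in membrane traffic and autophagy (Smcr8).

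In the GENCODE M21 annotation of GRCm38, the genes stand along the chromosome in the order Atpaf2, Gid4, Drg2, Myo15, Alkbh5, Llgl1, Flii, Mief2, Top3a and Smcr8. They span 387.7 kb and are the only 10 protein-coding genes in it. Drg2 ends 584 bases before Myo15 begins, on the same strand, and Alkbh5 starts 8011 bases after Myo15 ends. Atpaf2 and Gid4 start head to head and overlap by 1313 bases, and Llgl1 and Flii overlap by 64 bases at their ends, each pair on opposite strands. Counts on the strand of the gene were used, with 5.21% to 6.47% of gene reads per library on the other strand. Over Myo15 itself, reads from the other strand numbered between 0 and 6 per library.

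The promoters of Myo15 and of the gene on each side of it are shown because they stand next to each other on the chromosome and differ in their content of CpG, the dinucleotide at which mouse DNA is methylated. Each window runs from 250 bases before to 50 bases after the annotated start in RefSeq (GRCm38.p6), 5′ to 3′ on the strand of the gene, and capitals mark each CG. The RefSeq start is the GENCODE one for Drg2 and Myo15, but for Alkbh5 it lies 1302 bases inside the GENCODE gene, so that this window is not at the start used for the distances above. For Atpaf2, too, the RefSeq start lies 1423 bases inside, and the overlap with Gid4 holds for the GENCODE genes. The windows are chr11:60454341-60454640 for Drg2, chr11:60469089-60469388 for Myo15 and chr11:60537433-60537732 for Alkbh5, all on the plus strand.
Drg2: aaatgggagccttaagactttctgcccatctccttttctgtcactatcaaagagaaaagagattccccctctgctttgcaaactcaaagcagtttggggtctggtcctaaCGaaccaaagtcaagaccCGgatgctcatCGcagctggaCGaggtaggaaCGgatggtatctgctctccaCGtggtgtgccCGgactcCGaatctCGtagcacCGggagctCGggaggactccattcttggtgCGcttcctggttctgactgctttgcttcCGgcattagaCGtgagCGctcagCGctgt
Myo15: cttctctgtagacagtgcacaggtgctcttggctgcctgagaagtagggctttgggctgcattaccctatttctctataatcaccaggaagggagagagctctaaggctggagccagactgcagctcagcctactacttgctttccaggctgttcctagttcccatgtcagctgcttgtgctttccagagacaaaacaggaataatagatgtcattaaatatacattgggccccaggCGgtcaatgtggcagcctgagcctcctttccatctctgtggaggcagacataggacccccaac
Alkbh5: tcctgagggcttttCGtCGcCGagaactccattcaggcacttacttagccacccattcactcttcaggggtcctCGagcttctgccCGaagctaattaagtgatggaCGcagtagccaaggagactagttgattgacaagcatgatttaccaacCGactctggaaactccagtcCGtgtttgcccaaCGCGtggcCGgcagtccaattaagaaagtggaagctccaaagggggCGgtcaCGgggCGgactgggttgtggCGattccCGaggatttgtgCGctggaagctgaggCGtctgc
The Myo15 window held 1 CG, against 16 in Drg2 and 18 in Alkbh5. Over all 32851 windows in the table the median was 7, and 14.1% of windows held 1 or 0. Among the 8 members with a window, the other 5 held between 18 (Mief2) and 35 (Atpaf2). Top3a and Smcr8 had no window in the table. The GC content of the Myo15 window was 51.0%, near the median of 52.7%, so the window is poor in CG and not in G and C. Searched on both strands, the letters TATAAA were in none of the 8 windows (13.6% of all windows hold them). GGGCGG was absent from the windows of Myo15 and Drg2 and present in the other 6 (35.7% of all windows). CCAAT occurred 1 time in Myo15, 1 time in Alkbh5 and not in Drg2 (37.4% of all windows). The longest uninterrupted run of CAG in the annotated transcripts was 3 units for Myo15 and Flii and 2 units for the other 8 genes, and 7.74% of all genes with a transcript sequence had a run of at least 3.

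Each library held between 15855751 and 45265719 reads assigned to genes. Levels are in CPM, the counts of a library divided by its TMM-scaled size, and differences are log2 fold changes from edgeR, with a standard error (SE) and a 95% interval. A gene was called at an adjusted p under 0.05 (edgeR quasi-likelihood test, Benjamini-Hochberg over all 19378 genes). Library 409 (Het DMSO) stood apart, with 0.0795% of its gene reads from mitochondrial transcripts against 1.85% to 2.81% in the other 11. So did library 411 (Het DMSO), whose granule cell markers summed to 187.5 CPM against 3836 to 8831 CPM in the other 11 and whose Purkinje cell markers summed to 651.5 CPM against 3387 to 8055 CPM. Granule cells are the most numerous neurons of the cerebellum, so library 411 goes against its tissue label, and many of the values below are also given without libraries 409 and 411. Atxn1 itself, the gene that was altered, measured 137 to 186 CPM over all 12 libraries, and all Het libraries differed from WT by 0.06 on the log2 scale (SE 0.10, edgeR adjusted p 0.945). Gene counts do not see the length of its repeat and so check no genotype label. Xist, expressed in females, was at 1393 and 1464 CPM in WT libraries 425 and 426 and under 1 CPM in the other 10, so sex and genotype overlap in part.

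Myo15 was low in every Het library. In WT DMSO it measured 16.1, 13.9, 15.0 and 21.8 CPM in animals 413, 425, 426 and 431, from 452 to 588 reads. In Het DMSO it measured 3.50, 1.77, 1.49 and 2.34 CPM in animals 409, 411, 420 and 429, and in Het Hit 2 it measured 2.95, 2.97, 2.39 and 3.52 CPM in animals 410, 421, 422 and 430. The highest of the 8 Het libraries stayed well under the lowest WT library, while the Het groups overlapped each other. Means were 16.7 ± 3.54 CPM in WT DMSO, 2.27 ± 0.889 CPM in Het DMSO and 2.96 ± 0.460 CPM in Het Hit 2 (SD, n = 4 each), so that the Het DMSO mean was 13.6% and the Het Hit 2 mean 17.7% of the WT mean. The log2 fold change was -2.86 (SE 0.28, interval -3.46 to -2.25) for Het DMSO against WT DMSO and -2.50 (SE 0.27, interval -3.09 to -1.91) for Het Hit 2 against WT DMSO. All 8 Het libraries against the 4 WT libraries gave -2.68 (SE 0.22, interval -3.15 to -2.21). Ordered by log2 fold change from the lowest, Myo15 was 7th, 6th and 6th of 19378 genes in these 3 comparisons. They share the WT libraries, and the first 2 each share Het libraries with the last.

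**Figure D1:**
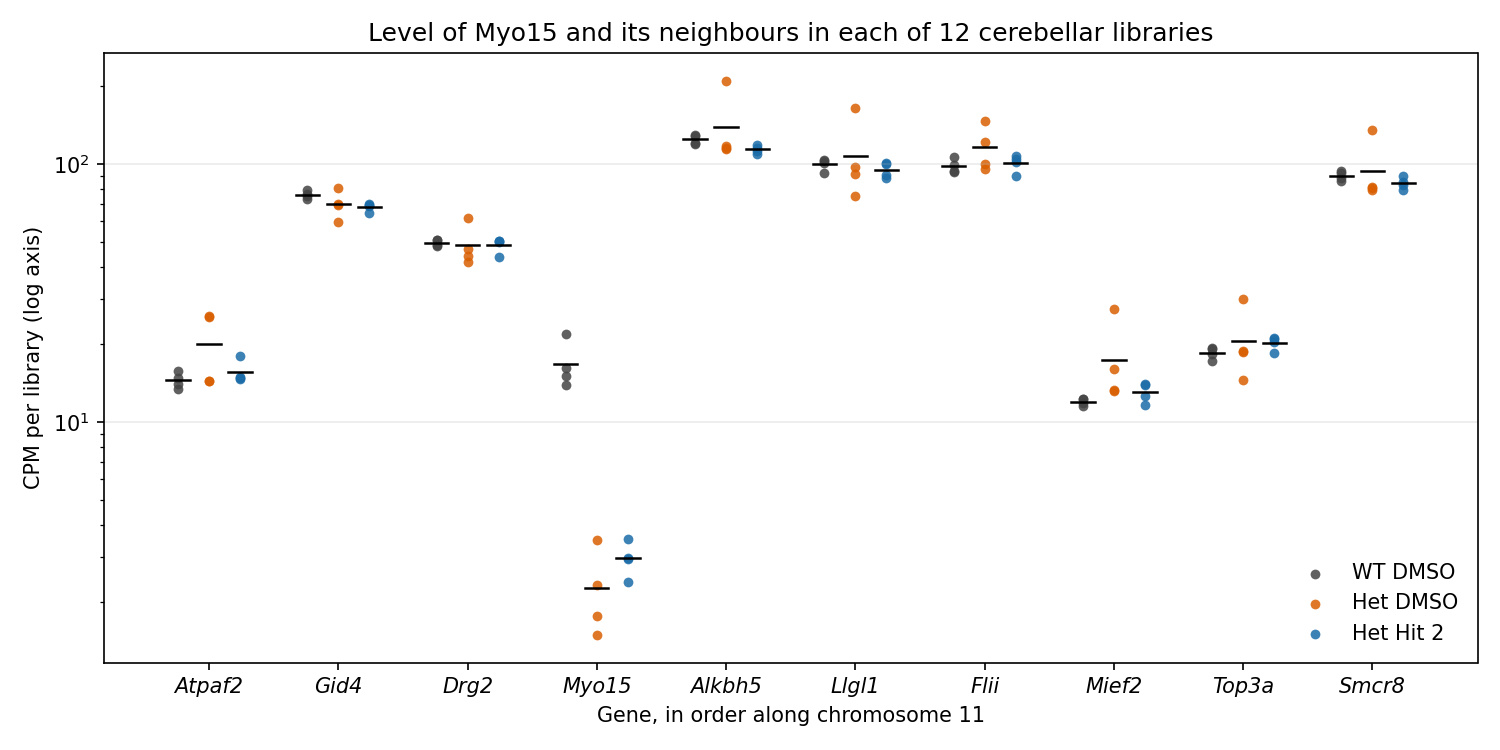
Level of each gene in each of the 12 libraries, in CPM on a log axis, with genes in their order along chromosome 11, 1 point per library and a bar at each group's mean. Myo15 lies between 1.49 and 3.52 CPM in the Het libraries and between 13.9 and 21.8 CPM in the WT libraries, while the groups of each neighbour lie closer together, with single Het DMSO points apart, such as library 409 at Alkbh5 (210.1 CPM) and library 411 at Gid4 (59.7 CPM).

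Without libraries 409 and 411, the log2 fold change of Myo15 was -3.11 in Het DMSO and -2.81 over all Het libraries against WT. The 2 male WT libraries, 413 and 431, held 16.1 and 21.8 CPM, and the 2 female ones 13.9 and 15.0 CPM. All Het libraries were male by Xist, and the part of sex in the low Myo15 was not tested. With a sex term in the fit the 3 values were -3.04, -2.68 and -2.86. In bulk tissue, fewer cells that express a gene and less RNA per cell cannot be told apart. Markers of Purkinje cells (10 genes, 0 of 10 called) had a summed level of 7718 to 8055 CPM in WT DMSO, 652 to 7058 CPM in Het DMSO and 3387 to 6706 CPM in Het Hit 2, each Het library below each WT library, with a median log2 fold change of -0.78 over all Het libraries. Without libraries 409 and 411 the median was -0.57 and 1 of 10 was called, Pcp4, a calmodulin-binding peptide gene, lower, where 0.607% of all genes were called. Library 409, which stood apart, held the most of these markers and of Myo15 among the Het DMSO libraries, at 7058 and 3.50 CPM. Astroglia markers (0 of 8 called) summed to 1921 to 2433 CPM in the Het libraries against 2513 to 2734 CPM in WT, a sum made up mostly of Slc1a2 and Slc1a3, transporters of glutamate. Over all Het libraries the 8 genes lay between -1.11 (Gdf10, SE 0.60) and -0.05 (Aldh1l1, SE 0.13) on the log2 scale, with a median of -0.14, or -0.20 with 409 and 411 left out. In Het DMSO alone Aldh1l1 had the higher mean, 63.2 ± 12.8 CPM against 60.9 ± 6.59 CPM in WT (SD, n = 4). Without libraries 409 and 411 it was lower in that comparison, at -0.21 on the log2 scale (SE 0.10). The part of these cell types in the low Myo15 was not tested.

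Myo15 was also low in each mouse given Hit 2. Against Het DMSO, the log2 fold change of Myo15 in Het Hit 2 was 0.36 (SE 0.27, interval -0.22 to 0.94, edgeR adjusted p 0.898), with an exact two-sided permutation p of 0.171 over 70 assignments. The groups overlapped, since library 409 reached 3.50 CPM and library 422 only 2.39 CPM. Leaving out 1 library at a time gave 0.21 to 0.65, with 0.65 without library 409 (edgeR adjusted p 0.909). Without that library the highest Het DMSO library held 2.34 CPM, close to the lowest Het Hit 2 library at 2.39 CPM. The share of all genes without overlap in those libraries was not counted. Without libraries 409 and 411 the value was 0.59 (interval 0.03 to 1.16, edgeR adjusted p 0.983). Myo15 was chosen for its low level in these Het libraries, so the values of this comparison are not independent of that choice.

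Per kilobase of exon, Myo15 was the least abundant of the 10 genes even in wild-type mice, at 1.31 ± 0.278 CPM per kb (SD, n = 4). Above it came Top3a (4.03 ± 0.199), Mief2 (4.41 ± 0.139), Atpaf2 (6.78 ± 0.490), Smcr8 (11.1 ± 0.425) and Gid4 (15.6 ± 0.492), all in CPM per kb, and none of these neighbours in the order overlapped. Drg2 (18.2 ± 0.503), Flii (19.5 ± 1.26), Llgl1 (20.5 ± 1.10) and Alkbh5 (20.8 ± 0.846 CPM per kb) were highest, and each overlapped the next. The genes on each side of Myo15, Drg2 and Alkbh5, were thus among the more abundant of the set. In Het DMSO, Myo15 fell to a level of 0.178 ± 0.0696 CPM per kb (SD, n = 4).

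Against this, 0 of the 9 neighbours was called in Het DMSO against WT DMSO, where 0.00516% of all genes were called. That is 1 gene of 19378, Myo15 itself, from which nothing is read since it was chosen on this contrast. At an unadjusted p under 0.05, edgeR counted 2 of the 9 (Atpaf2 and Mief2, both higher), where 7.11% of all genes passed. Fold changes of the neighbours lay between -0.12 and 0.54 on the log2 scale, with a median of 0.15 against 0.05 over all genes, and 7 were above 0 and 2 below (44.2% of all genes were below 0). Without library 409 alone, 3 were above 0 and 6 below, from -0.20 to 0.32, and without both 409 and 411, 2 were above 0 and 7 below, from -0.17 to 0.13 (51.4% of all genes were below 0). The lowest bound of any of the 9 intervals was -0.34. DESeq2 with its own size factors also called 0 of the 9.

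Drg2, the GTP-binding protein gene that ends just upstream of Myo15, was almost level. It measured 48.5, 48.3, 50.5 and 50.9 CPM in the WT libraries, 61.7, 41.8, 46.9 and 44.0 CPM in Het DMSO and 43.4, 50.3, 50.03 and 49.8 CPM in Het Hit 2 (libraries in the order given above). Both Het groups overlapped WT, with 409 above and 4 of the 8 Het libraries below the WT range. The log2 fold change was -0.03 (SE 0.13, interval -0.30 to 0.25, edgeR adjusted p 0.942) in Het DMSO against WT DMSO and -0.03 (SE 0.11, interval -0.27 to 0.21) over all Het libraries. With 409 and 411 left out the latter was -0.09 (interval -0.22 to 0.03).

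Alkbh5, which removes the methyl group from N6-methyladenosine in RNA, is the next gene downstream. WT libraries held 119.5, 129, 129 and 121 CPM, Het DMSO libraries 210.1, 115, 114 and 117 CPM, and Het Hit 2 libraries 109.6, 113, 119 and 115 CPM. Apart from library 409, each of the other 7 Het libraries lay below the lowest WT library, by a small margin. The log2 fold change over all Het libraries was 0.02 (SE 0.16, interval -0.33 to 0.36, edgeR adjusted p 0.988). With 409 and 411 left out it was -0.13 (interval -0.23 to -0.03, edgeR adjusted p 0.375).

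Gid4, the receptor through which the CTLH ligase recognises its substrates, was slightly lower in most Het libraries. Its 4 WT libraries held 73.4, 76.5, 79.0 and 75.0 CPM, against 80.6, 59.7, 69.1 and 69.8 CPM in Het DMSO and 64.5, 68.9, 70.2 and 69.1 CPM in Het Hit 2. As for Alkbh5, 7 of 8 Het libraries fell below the WT range, and 409 stood above it. The log2 fold change over all Het libraries was -0.14 (SE 0.09, interval -0.33 to 0.05, edgeR adjusted p 0.939), and the exact two-sided permutation p over 495 assignments was 0.0505, the smallest among the neighbours. In the 10 libraries other than 409 and 411 it was -0.15 (interval -0.25 to -0.06, edgeR adjusted p 0.228).

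The mitochondrial genes Mief2 and Atpaf2 had the highest values in Het DMSO. Mief2, which recruits Drp1 to the outer membrane, measured 11.9, 12.3, 12.3 and 11.5 CPM in WT, 27.3, 16.0, 13.3 and 13.2 CPM in Het DMSO and 14.0, 12.6, 13.9 and 11.6 CPM in Het Hit 2. All 4 Het DMSO libraries were above WT, the only neighbour without overlap in that comparison (4.39% of all genes were without overlap, 1.94% higher). Its log2 fold change there was 0.54 (SE 0.21, interval 0.08 to 1.01, edgeR adjusted p 0.616) and, without libraries 409 and 411, 0.13 (interval -0.10 to 0.36). Atpaf2, which helps assemble the F1 part of ATP synthase, measured 15.8, 14.0, 13.4 and 14.8 CPM in WT, 25.7, 25.5, 14.4 and 14.4 CPM in Het DMSO and 18.1, 14.8, 14.7 and 14.9 CPM in Het Hit 2. Only libraries 409, 411 and 410 were above the WT range. Its log2 fold change in Het DMSO against WT DMSO was 0.47 (SE 0.20, interval 0.02 to 0.91, edgeR adjusted p 0.616), and -0.02 without libraries 409 and 411.

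The polarity gene Llgl1 and the actin regulator Flii overlapped between all groups. Llgl1 ranged over 92.0 to 104 CPM in WT, 75.4 to 164 CPM in Het DMSO and 88.5 to 101 CPM in Het Hit 2, and Flii over 93.1 to 107 CPM, 95.2 to 147 CPM and 89.8 to 108 CPM. Over all Het libraries against WT the log2 fold change was 0.01 (SE 0.17) for Llgl1 and 0.14 (SE 0.12) for Flii (edgeR adjusted p 0.990 and 0.939). Top3a, which untangles DNA strands together with Blm, Rmi1 and Rmi2, ranged over 17.3 to 19.3 CPM in WT, 14.5 to 29.9 CPM in Het DMSO and 18.4 to 21.1 CPM in Het Hit 2. Smcr8 ranged over 86.1 to 93.7 CPM, 79.1 to 136 CPM and 79.0 to 89.7 CPM. For both genes the groups overlapped, and the log2 fold changes over all Het libraries were 0.14 (SE 0.16) and -0.02 (SE 0.14), with edgeR adjusted p of 0.939 and 0.988. With 409 and 411 left out these 4 genes were at -0.09 (Llgl1), 0.0057 (Flii), 0.06 (Top3a) and -0.14 (Smcr8, interval -0.24 to -0.03, edgeR adjusted p 0.375).

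Library 409 was the highest of the 12 for 9 of 9 neighbours, and it was the highest for 28.3% of all genes tested. Library 411 was the lowest for 4 of 9, and for 23.7% of all genes. At Myo15, library 409 was the highest of the 4 Het DMSO libraries too, at 3.50 CPM, and leaving it out moved the log2 fold change against WT DMSO from -2.86 to -3.16. In the 10 other libraries the neighbours' log2 fold changes for all Het against WT lay between -0.15 and 0.12, with 5 below 0 and 4 above, where 48.4% of all genes were below 0. Their intervals reached from -0.25 to 0.30, and the smallest edgeR adjusted p was 0.228, for Gid4. In the same fit 122 genes were called, or 0.607% of those tested.

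**Figure D2:**
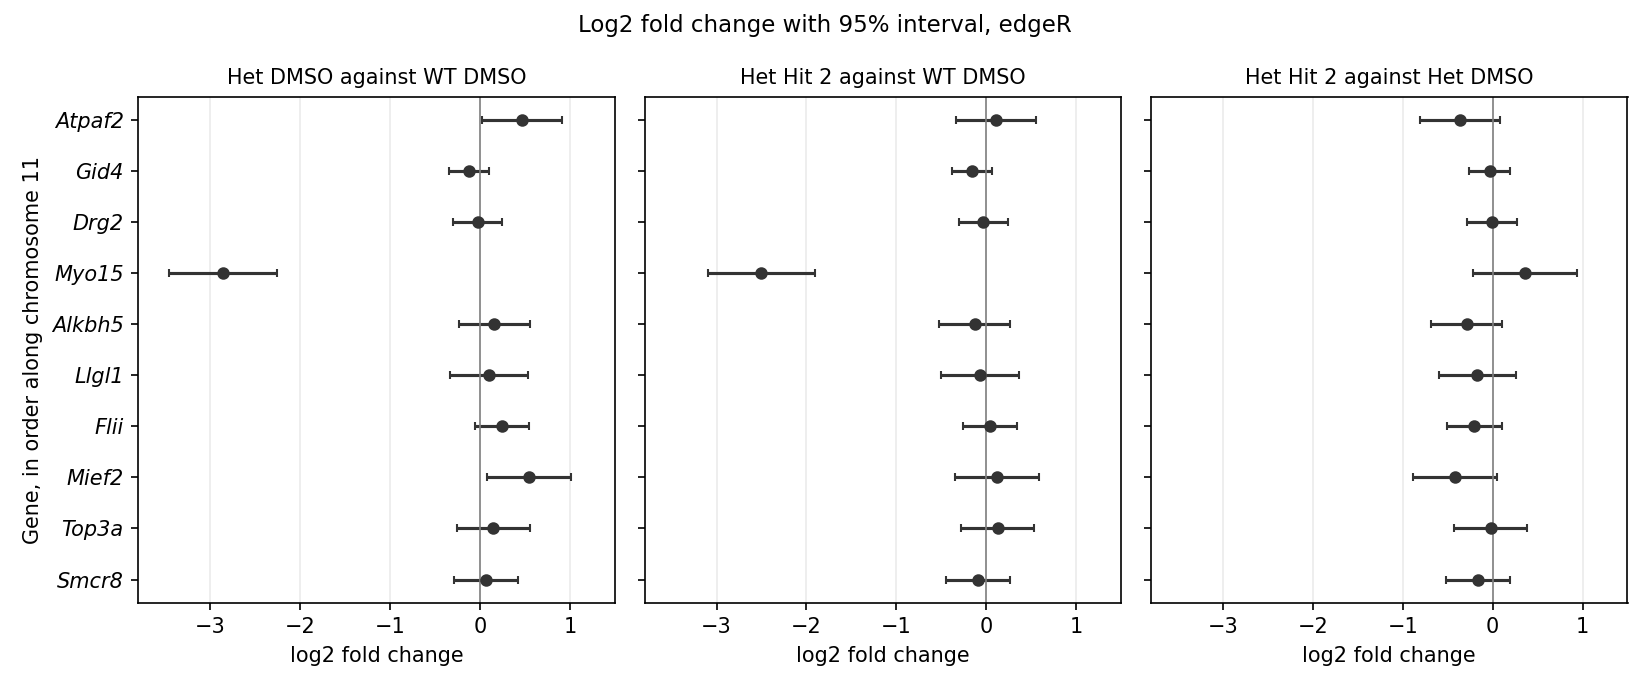
Log2 fold change of each gene with its 95% interval (edgeR), in 3 comparisons of groups of 4 libraries, with genes in chromosomal order from top to bottom. Myo15 lies at -2.86 and -2.50 against WT DMSO, the neighbours lie between -0.16 and 0.54 in those comparisons, and the right panel shows Myo15 at 0.36 and the neighbours between -0.42 and -0.01 for Het Hit 2 against Het DMSO.

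In Het Hit 2 against WT DMSO, 0 of 9 neighbours was called (0.00516% of all genes, again Myo15 alone), and edgeR counted 0 of 9 at an unadjusted p under 0.05 (1.71% of all genes), as DESeq2 did at its threshold. Fold changes lay between -0.16 (Gid4) and 0.13 (Top3a) on the log2 scale, with 4 above 0 and 5 below (44.3% of all genes were below 0). Gid4 and Alkbh5 did not overlap WT, both lower, where 6.32% of all genes were without overlap and 3.42% lower. Each had an exact two-sided permutation p of 0.0286, the smallest that 4 against 4 libraries allow. Their sizes were small beside that of Myo15: the group means were 89.7% and 91.5% of the WT mean.

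Over all 8 Het libraries against WT, 0 of 9 neighbours was called, where 0.0516% of all genes were, and 0 of 9 had an unadjusted p under 0.05 (3.79% of all genes) in edgeR or was called by DESeq2. Their log2 fold changes lay between -0.14 and 0.33, with 6 above 0 and 3 below (44.8% of all genes were below 0) and a median of 0.02 against 0.03 over all genes. None of the 9 was without overlap, where 1.80% of all genes were. The 9 intervals together reached from -0.36 to 0.74.

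Hit 2 against Het DMSO gave 0 of 9 neighbours called (0.00% of all genes) and 0 of 9 with an unadjusted p under 0.05 in edgeR (1.55% of all genes), with 0 called by DESeq2. All 9 log2 fold changes were below 0, from -0.42 (Mief2, SE 0.21, interval -0.89 to 0.04) to -0.01 (Drg2), where 55.7% of all genes were below 0. None of the 9 was without overlap (1.03% of all genes were), and the lowest edgeR adjusted p was 0.898. Without library 411 alone all 9 were below 0, from -0.50 to -0.11. Without library 409 alone 4 were below 0 and 5 above, from -0.21 to 0.22, so the common direction did not hold without it. Genes near 0 also crossed it without library 410 (Drg2 at 0.022) and without library 431 (Drg2 at 0.015, Top3a at 0.0026). With 409 and 411 left out, 3 were below 0 and 6 above, between -0.03 and 0.11. These values share the Het DMSO libraries with the comparison against WT DMSO.

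Genes further out were looked at in the same way. The annotation lists 91 other genes within 1 Mb of Myo15, of which 44 were tested, the 9 neighbours among them. In all 4 comparisons 0 of the 44 was called by edgeR. For all Het against WT, 20 were lower and 24 higher, where 44.8% of all genes were lower. They ranged from -0.47 (Aldh3a1) to 0.44 (Tnfrsf13b) on the log2 scale, with a median of 0.02 against 0.03 over all genes. The other comparisons gave 18 of 44 lower for Het DMSO against WT DMSO (44.2% of all genes) and 26 of 44 for Het Hit 2 against WT DMSO (44.3%). Het Hit 2 against Het DMSO gave 37 of 44 lower (55.7% of all genes), with a median of -0.13 against -0.04 over all genes. With 409 and 411 left out, 45 window genes were tested. The counts lower were then 31, 26 and 20 in the same order (51.4%, 47.5% and 47.7% of all genes) and 27 for all Het against WT (48.4%). For Het DMSO against WT DMSO, 4 of 44 had an unadjusted p under 0.05 in edgeR (9.09%, against 7.11% of all genes): Mief2, Atpaf2, 4933439C10Rik at 0.56 and Rasd1 at -0.73, within a range of -0.74 to 0.62. For all Het against WT, 1 of 44 had an unadjusted p under 0.05, 4933439C10Rik, a non-coding transcript 955.7 kb away, at 0.42 (edgeR adjusted p 0.939). The next by p were Usp22, a ubiquitin protease of the SAGA complex, at 0.23, and Mprip, a myosin phosphatase partner, at -0.27 (edgeR unadjusted p 0.0997 and 0.101). With 409 and 411 left out the count of window genes called was again 0, with Mprip at -0.32 (edgeR adjusted p 0.0739), 4933439C10Rik at 0.25 and Usp22 at 0.07. Within 5 Mb, 126 of 284 genes were tested and 0 called in each comparison. An alternative with a quality weight per library in limma was added after the data were seen. It called Mprip, 688.5 kb from Myo15, at -0.31 in both Het Hit 2 and all Het against WT (limma adjusted p 0.0352 and 0.0157). Over all genes it called 221 for Het Hit 2 against WT and 343 for all Het against WT, so Mprip was 1 of many. Of the 9 neighbours it called 0.

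**Figure D3:**
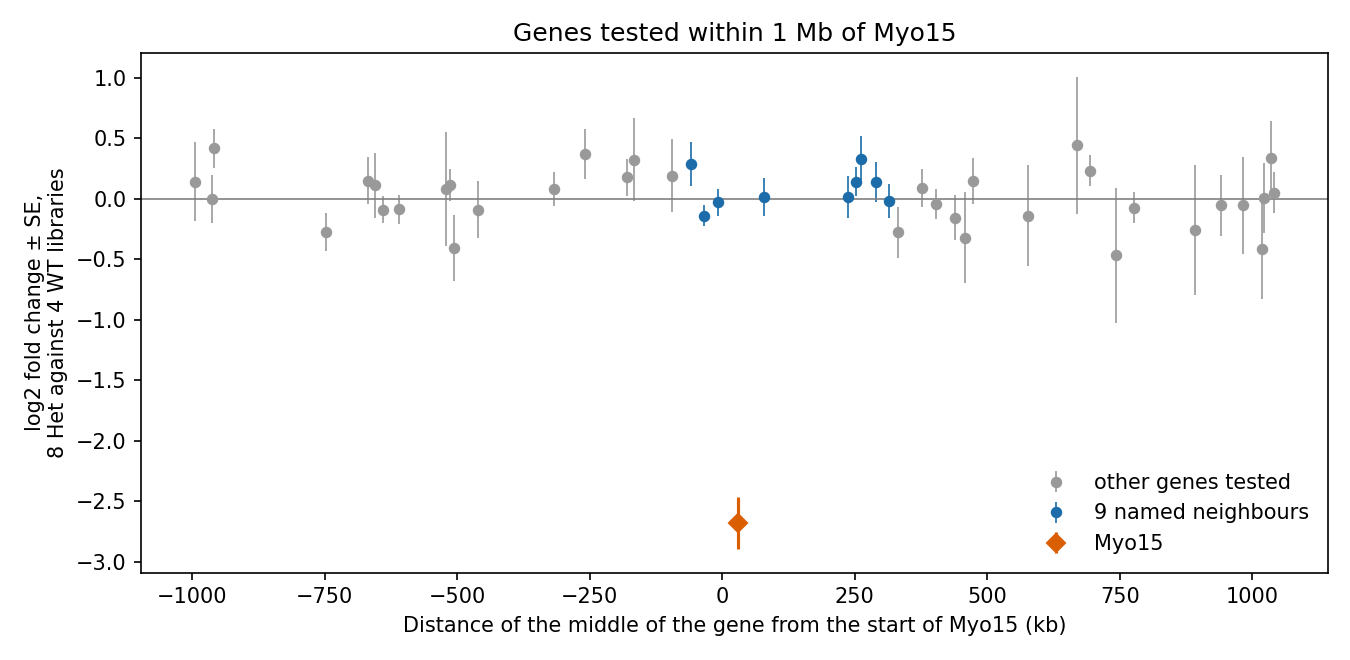
Log2 fold change ± SE (edgeR) of all Het against WT for each tested gene within 1 Mb of Myo15, against the distance of the middle of the gene from the start of Myo15 in kb. Myo15 lies at -2.68, and the 44 other genes, the 9 named neighbours among them, lie between -0.47 and 0.44.

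Genes whose pattern was most like that of Myo15 lay elsewhere in the genome. Over log2 CPM of the 12 libraries, among 16622 genes with a mean of at least 1 CPM, the 5 highest Pearson r belonged to AW011738 on chromosome 4 (0.949), Clmn on 12 (0.920), Slc20a1 on 2 (0.919), Ppp1r16b on 2 (0.909) and Gcnt1 on 19 (0.907). Within the 8 Het libraries alone their r was 0.789, 0.737, 0.230, 0.345 and 0.635, lower for all 5 and lowest for Slc20a1 and Ppp1r16b. The 12 points fall into a WT and a Het cluster and share library depth and tissue content, and no p is given. Among the neighbours, Gid4 came closest (r 0.643, place 210) and Drg2 next (r 0.282, place 2970), and Mief2 was lowest (r -0.368). Within the 8 Het libraries the order was another: all 9 r were above 0, from 0.0737 (Atpaf2) to 0.646 (Top3a), with Drg2 at 0.566, Smcr8 at 0.547 and Gid4 at 0.486. None of the 9 was among the 5 genes most like Myo15 over the 12 libraries. Over the 10 libraries other than 409 and 411, r was 0.916 to 0.955 for the 5 genes, and for the neighbours it ranged from -0.719 (Mief2) to 0.810 (Gid4), with Smcr8 at 0.793, Alkbh5 at 0.727 and Drg2 at 0.457.

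These 5 genes were picked for their likeness to Myo15, so their direction is not a separate finding. Their shifts were smaller. Clmn, which codes for the membrane protein calmin, held 272 ± 8.44 CPM in WT DMSO, 197 ± 31.7 CPM in Het DMSO and 205 ± 11.3 CPM in Het Hit 2 (SD, n = 4). Gcnt1, an enzyme that branches O-linked glycans, came nearest in size, with 3.45 to 5.92 CPM in WT, 1.24 to 1.79 CPM in Het DMSO and 1.54 to 2.22 CPM in Het Hit 2. Its log2 fold change over all Het libraries was -1.46 (SE 0.21), against -0.54 to -0.29 for the other 4. In the 10 libraries other than 409 and 411 it was -1.44, and the other 4 lay between -0.61 and -0.33.

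**Figure D4:**
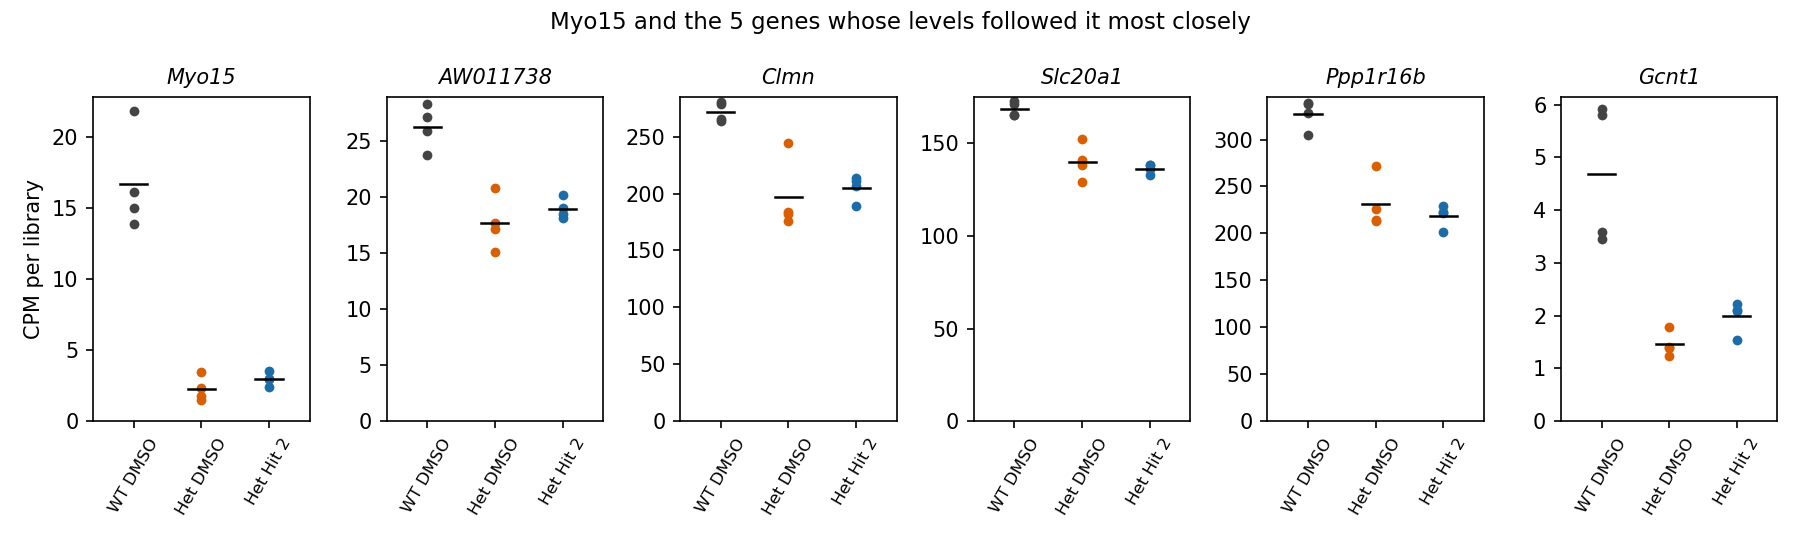
Level in CPM of Myo15 and of the 5 genes with the highest correlation to it, 1 panel per gene with its own axis starting at 0, 1 point per library and a bar at each group's mean. The Het groups lie below WT in each panel, with the widest relative gap at Myo15 and the next widest at Gcnt1.

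Genes for the proteins that myosin XVA carries in hair cells were looked at next. Of Whrn, Eps8, Gpsm2 and Gnai3, 0 of 4 was called in any comparison. Over all Het libraries the log2 fold changes were -0.13 (SE 0.18) for Whrn, the scaffold whirlin, 0.13 (SE 0.27) for Eps8, an actin regulator, 0.29 (SE 0.26) for Gpsm2, and -0.17 (SE 0.24) for Gnai3, an inhibitory G protein subunit (edgeR adjusted p 0.939 to 0.952). Their median was -0.003 against 0.03 over all genes. In the 10 libraries without 409 and 411 the values were -0.07, 0.25, 0.14 and 0.03 in the same order, with a median of 0.08. Of 20 further hair bundle genes, 14 were tested and 0 called in each comparison, with a median of 0.14 for all Het against WT. The lowest p in that list belonged to Ush1g, the scaffold protein Sans of the stereocilia. It measured 2.98 to 4.79 CPM in WT, 0.656 to 1.74 CPM in Het DMSO and 1.27 to 2.22 CPM in Het Hit 2, so that all 8 Het libraries were below WT, where 1.18% of all genes were. Its log2 fold change was -1.32 (SE 0.25, edgeR unadjusted p 1.91e-04, adjusted p 0.161). With 409 and 411 left out Ush1g was called, at -1.20 (SE 0.20, edgeR adjusted p 0.0287, 0.607% of all genes called), and the list's median was -0.08. Espn, an actin bundler, was at -0.51 (SE 0.21, edgeR adjusted p 0.939).

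Of 23 other unconventional myosins listed, 19 were tested and 0 called in each comparison. Their median was 0.17 for all Het against WT, where that of all genes was 0.03. Those with the lowest p were Myo10, the filopodial myosin, at -0.35 (SE 0.11), and Myo19, a mitochondrial myosin, at 0.32 (SE 0.11), each with an edgeR adjusted p of 0.939. Myo10 was called without libraries 409 and 411, at -0.41 (SE 0.06, edgeR adjusted p 0.0244, against the same 0.607%), and the list's median was 0.00091. Partners of the neighbours' proteins numbered 23, all tested, and 0 was called in each comparison, with a median of -0.03. Rmi2, which stabilises the complex of Blm, Top3a and Rmi1, came closest to the threshold. It measured 1.78, 2.85, 3.58 and 2.82 CPM in WT, from 50 to 137 reads. In the 8 Het libraries it measured 0.436 to 1.50 CPM, from 7 to 32 reads, all below WT, where 1.18% of all genes were. Its log2 fold change over all Het libraries was -1.80 (SE 0.29, edgeR unadjusted p 5.17e-05, adjusted p 0.0668). It was called without libraries 409 and 411, at -1.81 (SE 0.32, edgeR adjusted p 0.0370, against the same 0.607%). Maea, a subunit of the ligase that Gid4 serves, was at 0.32 (SE 0.17, edgeR adjusted p 0.939), and at 0.09 without libraries 409 and 411.

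Markers of hair cells and of the pituitary, where Myo15 is also known, were looked at as whole lists. Of 10 hair cell markers 5 were tested and 0 called, and their sum was 13.2 to 19.9 CPM in WT, 13.4 to 45.7 CPM in Het DMSO and 11.8 to 30.0 CPM in Het Hit 2, overlapping between genotypes. The hair cell genes Ocm and Slc26a5 did not exceed 0.0707 and 0.303 CPM, and Pou4f3 reached 1.46 CPM in 1 Het DMSO library, with a WT mean of 0.0148 ± 0.0178 CPM (SD, n = 4). Others were higher, with maxima of 40.5 CPM for Otof, 13.2 CPM for Loxhd1 and 5.82 CPM for Strc. Cabp2 was at 2.80 ± 0.656 CPM in WT, 0.899 ± 0.671 CPM in Het DMSO and 1.14 ± 0.601 CPM in Het Hit 2 (SD, n = 4), and -1.45 on the log2 scale over all Het libraries (SE 0.60, edgeR adjusted p 0.939). The other 4 tested lay on both sides of 0, with Otof at 1.19, Loxhd1 at -0.29, Lhx3 at -0.33 and Strc at -0.49 in the same comparison. Otof was at 4.63 ± 1.33 CPM in WT, 14.3 ± 17.5 CPM in Het DMSO and 7.89 ± 5.28 CPM in Het Hit 2 (SD, n = 4). Without libraries 409 and 411 Otof was at 0.43 (SE 0.43) over all Het libraries. Against WT it was then at 0.126 (SE 0.56) in Het DMSO and 0.735 (SE 0.454) in Het Hit 2. In the same fit Cabp2 was at -1.39 (SE 0.36, edgeR adjusted p 0.172) over all Het libraries. There 6 hair cell markers were tested and 0 called, with a median of -0.27. The part of these markers in the low Myo15 was not tested. Pituitary markers, of which 1 of 8 was tested and 0 called, summed to 0.942 to 7.82 CPM in WT, 0.911 to 1.29 CPM in Het DMSO and 0.395 to 1.80 CPM in Het Hit 2. The 1 tested, Pomc, the precursor of ACTH, was at 2.32 ± 3.06 CPM in WT (SD, n = 4) and at -1.55 on the log2 scale over all Het libraries (SE 0.64, edgeR unadjusted p 0.0325, adjusted p 0.939). Of these markers 2 were tested and 0 called once 409 and 411 were left out, Pomc at -1.51 (SE 0.76) and Gh, growth hormone, at -1.07 (SE 1.28). Lhb and Fshb had 0 reads in all libraries, and the part of pituitary markers in the low Myo15 was not tested. For the other lists 0 of 8 granule cell, 0 of 8 oligodendrocyte, 0 of 8 microglia, 0 of 8 choroid plexus and 0 of 5 red blood cell genes were called in each comparison. Granule cell markers summed to 5737 to 6473 CPM in WT, 187.5 to 8831 CPM in Het DMSO and 3836 to 6480 CPM in Het Hit 2. For all Het against WT the 8 granule genes lay between -0.51 (Neurod1) and -0.04 (Reln), with a median log2 fold change of -0.38, or -0.19 without libraries 409 and 411, and their part in the low Myo15 was not tested. Choroid plexus markers ranged over 31.7 to 1101 CPM in WT and 14.3 to 1931 CPM in the Het libraries. Oligodendrocyte markers were 1778 to 3377 CPM in WT and 1277 to 6558 CPM in Het libraries, microglia markers 73.1 to 104 CPM and 73.9 to 198 CPM, and red blood cell genes 6.21 to 53.9 CPM and 3.62 to 67.0 CPM, so that all 3 overlapped between genotypes.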

How the data were processed

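Deposited values were raw read counts per gene, 1 table per library in STAR's layout, per the file headers. FastQC 0.11.9, STAR 2.7.10a and the builds GRCm39 and mm39 are named in the submitters' processing notes, and the annotation release is not given in the sources used here. Symbols, lengths and distances came from GENCODE M21 on GRCm38, which matched 55141 of 55401 identifiers. Since that build differs, no gene coordinates are printed, and the promoter windows come from RefSeq's GRCm38.p6.

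Counts on the strand of the gene were used as deposited. Reads that STAR assigned to no gene (44.7% to 54.6% of a library), multimapping (4.08% to 7.01%), unmapped (3.70% to 6.53%) and ambiguous reads (0.761% to 1.33%) stayed out of library sizes and tests. Replicate correlations of log2 CPM were 0.976 to 0.989 in WT DMSO, 0.869 to 0.981 in Het DMSO and 0.955 to 0.991 in Het Hit 2. In R 4.3.3, edgeR 4.0.16 (filterByExpr, TMM, quasi-likelihood) was fitted to all 12 libraries with 1 coefficient per group, two-sided, with Benjamini-Hochberg adjustment over 19378 genes and a threshold of 0.05. Log2 CPM used a prior count of 2. For single neighbours, log2 CPM was also compared by exact permutation, two-sided. The scripts were tested on simulated data.

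Genes named were the 10 genes, window genes called or else the 3 with the lowest p, the 5 most like Myo15, the 4 myosin XVA partners, and the 2 with the lowest p of each other partner or family list. Lists were 4 of partners and families and 9 of cell type markers. The genes and lists were chosen with earlier results of these data known. Rasd1, the hair cell genes and genes at the ends of a range were named after their values were seen, and Atxn1, Xist and other marker genes are named as checks.

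Alternatives were DESeq2 1.42.0, RLE factors, no filter on low counts, unstranded counts, only the groups compared, a sex covariate, leaving out libraries 409 and 411, and leaving out each library in turn. Library quality weights in limma 3.58.1 were added after the data were seen.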

Additional observations from a re-analysis of the deposited data

Results flagged for a closer look

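Of 30 checks for a library far from the other 3 of its group (10 genes in 3 groups), 4 passed, where chance gives about 1 in 20, or 1.5. Alkbh5 in Het DMSO library 409 was at 210 CPM, with the nearest other library at 117 CPM. Smcr8 in the same library was at 136 CPM, with the nearest other at 81.3 CPM. Drg2 in Het Hit 2 library 410 was at 43.4 CPM, below the next at 49.8 CPM. Atpaf2 in the same library was at 18.1 CPM, above the next at 14.9 CPM. No group of Myo15 levels passed the check.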

How the results depend on the processing

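The fold changes of Myo15 kept their direction under each alternative, from -3.16 to -2.71 (Het DMSO), -2.68 to -2.35 (Het Hit 2) and -2.86 to -2.54 (all Het) against WT DMSO, and from 0.21 to 0.65 for Het Hit 2 against Het DMSO. Under each alternative 0 of the 9 neighbours was called, with adjusted p no lower than 0.104. The count over all genes did change, and the cause was not tested. For Het DMSO against WT DMSO it went from 1 to 43 with DESeq2, 0 with only the groups compared, 18 without libraries 409 and 411 and 98 with limma weights. For Het Hit 2 against WT DMSO it went from 1 to 24 with DESeq2, 4 without a filter, 2 with unstranded counts, 54 with only the groups compared, 0 with a sex covariate, 90 without libraries 409 and 411 and 221 with limma weights. For all Het against WT DMSO it went from 10 to 56 with DESeq2, 1 with a sex covariate, 122 without libraries 409 and 411 and 343 with limma weights. Leaving out 1 library gave 0 to 9, 0 to 14 and 1 to 38, highest without library 411, 411 and 409, with the 0 of Het DMSO without library 429. Hit 2 against Het DMSO gave 0 throughout. Of window genes, limma weights called 1 (Mprip) in both Het Hit 2 and all Het against WT DMSO, and the other alternatives called 0.

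Fold changes of several neighbours changed sign, Atpaf2 in Het DMSO against WT DMSO from 0.47. Without libraries 409 and 411, log2 fold changes on the other side of 0 were for Het DMSO against WT DMSO, Atpaf2 -0.016, Alkbh5 -0.12, Llgl1 -0.10, Flii -0.015 and Smcr8 -0.17, and for Het Hit 2 against Het DMSO, Drg2 0.088, Atpaf2 0.11, Llgl1 0.013, Flii 0.041, Top3a 0.10 and Smcr8 0.058, and for all Het against WT DMSO, Alkbh5 -0.13 and Llgl1 -0.089. With limma weights, they were for Het DMSO against WT DMSO, Alkbh5 -0.11, Llgl1 -0.10, Flii -0.0073 and Smcr8 -0.14, and for Het Hit 2 against Het DMSO, Drg2 0.13, Atpaf2 0.021, Llgl1 0.049, Flii 0.032, Top3a 0.14 and Smcr8 0.057, and for Het Hit 2 against WT DMSO, Drg2 0.0028, and for all Het against WT DMSO, Alkbh5 -0.12 and Llgl1 -0.078. With only the groups compared, they were for Het Hit 2 against Het DMSO, Drg2 0.015 and Top3a 0.0039. Leaving out 1 library also moved some across 0. For Het DMSO against WT DMSO, these were Alkbh5 -0.12 to 0.27, Drg2 -0.17 to 0.061, Llgl1 -0.19 to 0.26, Smcr8 -0.17 to 0.16 and Top3a -0.10 to 0.31. For Het Hit 2 against Het DMSO, these were Drg2 -0.11 to 0.13, Gid4 -0.13 to 0.042, Llgl1 -0.34 to 0.11, Smcr8 -0.27 to 0.070 and Top3a -0.19 to 0.22. For Het Hit 2 against WT DMSO, these were Drg2 -0.060 to 0.0063 and Flii -0.00070 to 0.082. For all Het against WT DMSO, these were Alkbh5 -0.12 to 0.063, Drg2 -0.10 to 0.0074, Llgl1 -0.13 to 0.089 and Smcr8 -0.14 to 0.027.

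No paired analysis was possible because animal numbers do not recur between groups. With only the groups compared, all Het against WT DMSO has no separate fit. Depth limits Myo15 in Het libraries, where it rests on 24 to 142 reads. The intervals of the neighbours against WT, which together reach from -0.52 to 1.01 on the log2 scale, limit which shifts could be detected. The lower bound is the one for a shift in the direction of Myo15.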
